A study of Homo sapiens with 6 samples.

Results

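Histone chaperones carry histones that are not wrapped in DNA and hand them to chromatin. The 10 genes described here encode the chaperones, the acetyltransferase and the mRNA-binding protein that serve the supply and deposition of histones H3 and H4, and they were taken by gene symbol from the 23228 rows of the table of normalized counts. They are CHAF1A, CHAF1B and ASF1B, which act mainly with DNA replication, HIRA, CABIN1, UBN1 and ASF1A, which act mainly outside it, and NASP, HAT1 and SLBP, which serve histone supply. All 10 passed the filter on low values, a mean normalized count of at least 10, together with 13255 genes in all.

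RNA was measured in SaOS-2 cells, a human osteosarcoma line that is null for RB and p53 and that here carried a vector expressing p21, the CDK inhibitor encoded by CDKN1A, under doxycycline control. The 3 p21 ON libraries came from cells given 1 µg/ml doxycycline for 24 h and the 3 p21 OFF libraries from untreated cells of the same kind, so all 6 libraries lack RB and p53. Cells given doxycycline without the vector were not analysed here, so the drug and p21 cannot be told apart, and the sources do not say whether the engineered cells are 1 clone. The comparison asks which genes depend on p21 in cells that have no RB.

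In each S phase, chromatin assembly factor 1 (CAF-1), of which CHAF1A and CHAF1B encode the large and the middle subunit, is brought to forks by the PCNA clamp and places new H3-H4 onto the daughter strands. The HIRA complex places the variant H3.3 throughout the cell cycle, and the ASF1 proteins feed both routes, ASF1B being known for its tie to proliferation and ASF1A for its work with HIRA. CAF-1 and ASF1B genes are commonly active in dividing cells, and many genes of the cell cycle have promoters with E2F elements, bound by E2F with RB family proteins, or with the CHR element, bound by the MuvB core.

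The libraries held between 12795490 and 21975045 reads on genes, and the 10 genes had between 654 and 5942 reads each per library. CDKN1A, counted from the vector and the chromosome together, was at 1266 ± 84.5 normalized counts in p21 OFF and 43691 ± 3138 in p21 ON (SD, n = 3), higher in every library labelled ON. Of 13255 genes tested with limma, 3074 (23.2%) passed an adjusted p of 0.05, 1393 (10.5%) higher and 1681 (12.7%) lower in p21 ON. With libraries scaled by their size alone the split was 2034 higher and 1194 lower. Of 9 osteoblast markers 6 reached a mean of 10, led by ALPL at 36664, and their sum ran from 53256 to 56153 in p21 OFF and from 54320 to 58566 in p21 ON. SPP1 and COL1A2 stayed under a mean of 10, and BGLAP was listed at 0. IBSP, from 129 ± 8.66 to 99.0 ± 3.204, was the 1 osteoblast marker that passed the test, lower in p21 ON (log2 fold change -0.38, adjusted p = 0.0264, limma). Of 10 markers of other cell types 3 reached a mean of 10, with EPCAM highest at 322. Their sum was 351 to 421 in p21 OFF and 347 to 383 in p21 ON, MYH1 was at 0, and none passed the test. The methods call replicates biological but the labels do not say what was cultured separately, so the p-values measure the spread between these libraries.

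After p21 induction the 10 genes did not move as a block. CHAF1A, ASF1B and HAT1 fell, CHAF1B, SLBP and UBN1 rose, and HIRA, CABIN1, ASF1A and NASP did not pass the test. The 6 of 10 genes that passed stand beside 23.2% of all genes, and their log2 fold changes ran only from -0.45 to 0.33. The median over the 10 was -0.01 against 0.01 for all genes tested, and the median absolute log2 change was 0.23 against 0.15. The p21 ON libraries lay outside the range of the p21 OFF libraries for 7 of the 10, above it for 3 and below it for 4, where 40.4% of all genes did so (19.1% above and 21.3% below). In bulk RNA a lower level from fewer cells in the phase that uses a gene and one from less RNA per cell cannot be told apart.

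**Figure D1:**
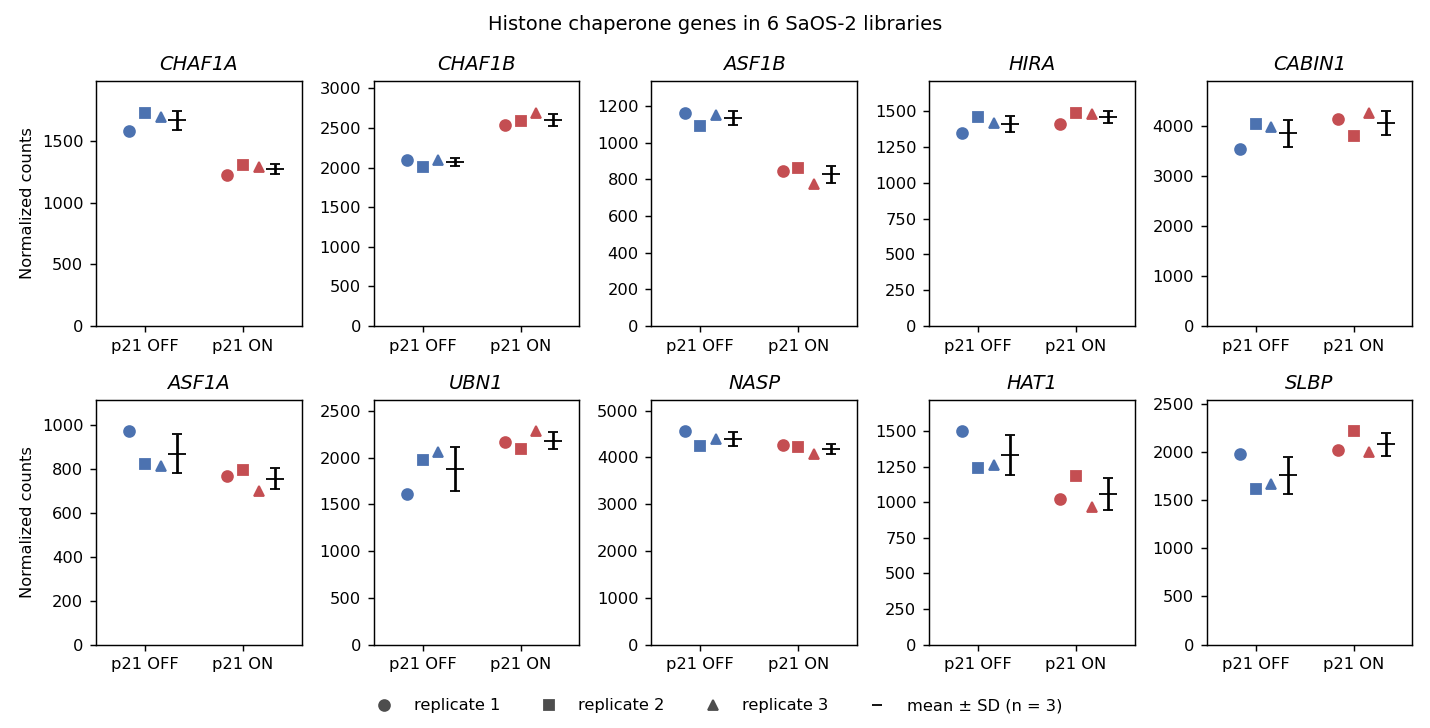
Normalized counts (y axis, from 0) of the 10 genes in the 3 p21 OFF (blue) and 3 p21 ON (red) libraries, with marker shapes for the replicate number and black bars for mean ± SD. CHAF1A and ASF1B sat lower and CHAF1B higher in every p21 ON library, while the points of HIRA, CABIN1 and NASP overlapped between the groups.

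The replication-coupled genes all passed the test, and the 2 CAF-1 subunits measured here changed in opposite directions. CHAF1A (chr19:4402637-4445015 in hg19, plus strand), the large subunit that binds PCNA, was at 1577, 1725 and 1692 normalized counts in p21 OFF and at 1225, 1305 and 1289 in p21 ON. All p21 ON values lay below all p21 OFF values. The mean fell from 1665 ± 77.4 to 1273 ± 42.4 (SD, n = 3), to 0.765 of its level, a log2 fold change of -0.39 ± 0.06 (SE, adjusted p = 0.000297, limma).

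CHAF1B (chr21:37757690-37791313, plus strand), the WD-repeat subunit that bridges CAF-1 to ASF1, went the other way. It was at 2099, 2009 and 2091 in p21 OFF and at 2539, 2589 and 2690 in p21 ON. Every p21 ON library was above every p21 OFF library, and the mean rose from 2066 ± 49.6 to 2606 ± 77.0, 1.26-fold, with a log2 fold change of 0.33 ± 0.06 (SE, adjusted p = 0.000544, limma).

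ASF1B (chr19:14230324-14247425, minus strand), the ASF1 paralogue tied to proliferation, fell furthest of the 10. Its values were 1163, 1090 and 1149 in p21 OFF and 847, 864 and 775 in p21 ON, with no overlap. The mean went from 1134 ± 39.0 to 829 ± 47.1, 0.731 of its level (log2 fold change -0.45 ± 0.07, SE, adjusted p = 0.000124, limma). Even so, 10.1% of all genes tested had a larger absolute log2 fold change than ASF1B, 14.0% a larger one than CHAF1A and 18.1% a larger one than CHAF1B. Of the 10, the study's stringent list of G1/S genes holds 3: CHAF1A, which fell, and CHAF1B and SLBP, which rose. ASF1B, which fell, is not in that list, but the study's text also names it among G1/S genes.

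The promoters of these genes were read for the elements named above, since the study turns on E2F and CHR sites. Each stretch is the 140 bases before a RefSeq start in GRCh38.p14, written 5′ to 3′ on the gene's own strand, with capitals for matches to the motif words: chr19:4402500-4402639 (plus) for CHAF1A, chr21:36385252-36385391 (plus) for CHAF1B, chr19:14136590-14136729 (minus) for ASF1B and chr22:19431734-19431873 (minus) for HIRA, the last shown as the only one of the 10 with an E2F word.
CHAF1A: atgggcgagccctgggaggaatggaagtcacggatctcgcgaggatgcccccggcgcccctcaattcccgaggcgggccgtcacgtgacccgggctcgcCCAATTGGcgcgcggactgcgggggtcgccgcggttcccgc
CHAF1B: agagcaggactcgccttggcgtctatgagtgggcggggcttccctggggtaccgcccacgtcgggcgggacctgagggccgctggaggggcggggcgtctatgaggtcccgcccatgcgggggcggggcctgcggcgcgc
ASF1B: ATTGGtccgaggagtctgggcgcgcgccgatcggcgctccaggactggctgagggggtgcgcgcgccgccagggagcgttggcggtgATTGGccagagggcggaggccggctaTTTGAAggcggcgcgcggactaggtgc
HIRA: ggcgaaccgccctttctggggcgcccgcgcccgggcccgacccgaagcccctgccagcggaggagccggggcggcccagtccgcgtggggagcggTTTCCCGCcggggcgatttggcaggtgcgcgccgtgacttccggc
The words searched on both strands, over 250 bases before and 50 after each start, were TTTCCCGC, TTTGGCGC, TTTCGCGC and TTTGCCGC for E2F, TTTGAA and TTTAAA for the CHR, and CCAAT for the CCAAT box. In ASF1B the CHR word TTTGAA began 27 bases before the start, with CCAAT on the opposite strand (printed as ATTGG) at 53, 140 and 219 bases. CHAF1A held CCAAT on both strands in an overlapping pair at 41 and 38 bases, and 2 more further up, but neither an E2F nor a CHR word, and CHAF1B held none of the words. HIRA had TTTCCCGC at 45 bases.

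Over all 10 genes, which have 11 listed starts, 1 gene had an E2F word, 4 had a CHR word (ASF1B, CABIN1, UBN1 and NASP) and 7 had CCAAT (CHAF1A, ASF1B, CABIN1, ASF1A, UBN1, NASP and HAT1). Among all 35116 promoters in the RefSeq table, 3.31% held an E2F word, 24% a CHR word and 34.6% CCAAT. SLBP, like CHAF1B, held none. Binding was not measured in these files, and a missing word says only that these letters were not in the window. The 3 genes that rose comprised 2 without any of the words and UBN1, which has CCAAT at one start and both CHR words at the other. Of those that fell, ASF1B held CHR and CCAAT words, and CHAF1A and HAT1 only CCAAT. Among those not called, CABIN1 and NASP held CHR and CCAAT words, ASF1A only CCAAT and HIRA only the E2F word. Whether the words go with direction was not tested.

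The replication-independent genes changed less. HIRA (chr22:19318221-19434973, minus strand), the scaffold of the H3.3 chaperone complex, was at 1349, 1460 and 1415 in p21 OFF and at 1413, 1488 and 1482 in p21 ON. The groups overlapped, and the 95% interval of the log2 fold change, -0.08 to 0.18, held 0 (adjusted p = 0.564, limma). CABIN1 (chr22:24407642-24574596, plus strand), a subunit of the same complex, was at 3547, 4043 and 3986 and then at 4136, 3798 and 4265, again overlapping, with an interval of -0.06 to 0.22 (adjusted p = 0.428).

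UBN1 (chr16:4896666-4932402, plus strand) encodes ubinuclein, which makes the complex specific for H3.3. It was at 1608, 1972 and 2056 in p21 OFF and at 2170, 2093 and 2279 in p21 ON, so the groups did not overlap, though the lowest p21 ON value was close to the highest p21 OFF value. Its mean rose from 1878 ± 238 to 2181 ± 93.2, 1.17-fold (log2 fold change 0.22 ± 0.08, SE), at an adjusted p of 0.0497, at the threshold. The call was lost without p21 OFF replicate 1, which was the low library (log2 fold change 0.11, adjusted p = 0.150), and without any one p21 ON library (adjusted p from 0.0698 to 0.189). UBN1 also missed the threshold with DESeq2 and with edgeR on the recovered reads.

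ASF1A (chr6:119215316-119230336, plus strand), the ASF1 paralogue that works with HIRA, was at 971, 823 and 815 in p21 OFF and at 770, 797 and 701 in p21 ON. All p21 ON values lay below all p21 OFF values, but p21 OFF replicate 1 stood well above the rest, and the log2 fold change of -0.20 (95% interval -0.37 to -0.03) did not pass (adjusted p = 0.0789, limma). No alternative called it.

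**Figure D2:**
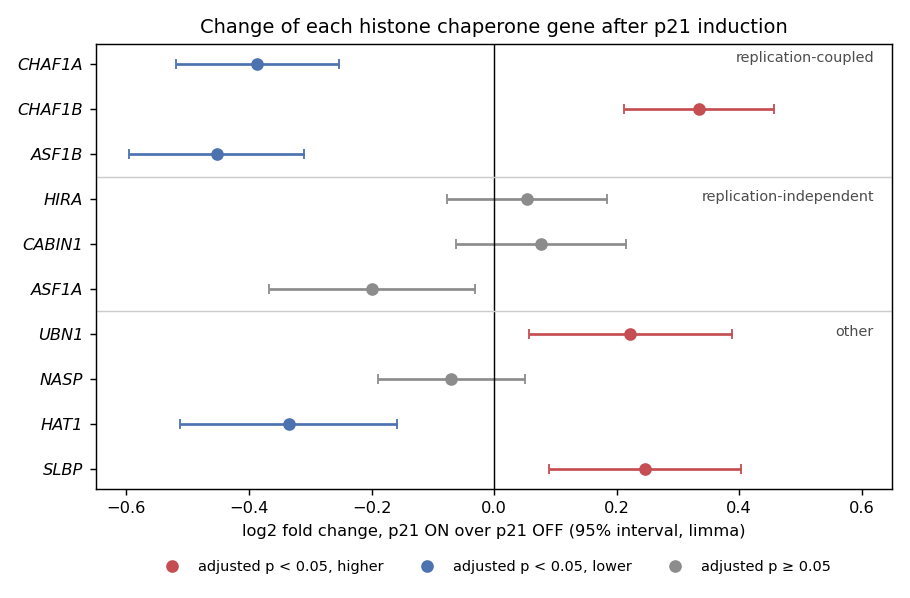
Log2 fold change of p21 ON over p21 OFF (x axis) for each gene (y axis, grouped as in the contrast of replication-coupled with replication-independent genes), with 95% intervals from limma and colour for the call. CHAF1A and ASF1B lie left of 0 at -0.39 and -0.45 and CHAF1B right of it at 0.33, while the intervals of HIRA, CABIN1 and NASP cross 0.

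Placed side by side in each library, the 2 kinds of gene shifted only slightly against each other. The mean log2(normalized count + 1) of CHAF1A, CHAF1B and ASF1B, less that of HIRA, CABIN1 and ASF1A, was -0.09, -0.12 and -0.06 in p21 OFF and -0.26, -0.21 and -0.24 in p21 ON. UBN1 was left out of this contrast. The groups did not overlap, and the difference between their means was -0.15. It was made of a mean log2 change of -0.17 over the replication-coupled genes and of -0.02 over the replication-independent ones. The rise of CHAF1B offset part of the fall of the other two in that mean. By medians in place of means the difference was -0.44. In every library those medians were CHAF1A and HIRA, so that value compares only these 2 genes.

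Ratios within a library show the shifts more plainly, since they do not depend on how libraries are scaled. CHAF1B reads exceeded CHAF1A reads 1.33, 1.16 and 1.24 times in p21 OFF and 2.07, 1.98 and 2.09 times in p21 ON. Per kb of canonical transcript, where CHAF1B is the longer, the ratio was 1.00, 0.878 and 0.931 in p21 OFF and 1.563, 1.495 and 1.574 in p21 ON. The 2 subunits thus went from near-equal RNA levels per length to an excess of CHAF1B in every p21 ON library.

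For the ASF1 pair, ASF1B over ASF1A per kb was 1.73, 1.91 and 2.03 in p21 OFF and 1.59, 1.56 and 1.59 in p21 ON. The groups did not overlap, and ASF1B remained the more abundant paralogue per length in all 6 libraries. The uncorrected ratio of counts was 1.31 ± 0.11 in p21 OFF and 1.10 ± 0.01 in p21 ON (SD, n = 3).

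**Figure D3:**
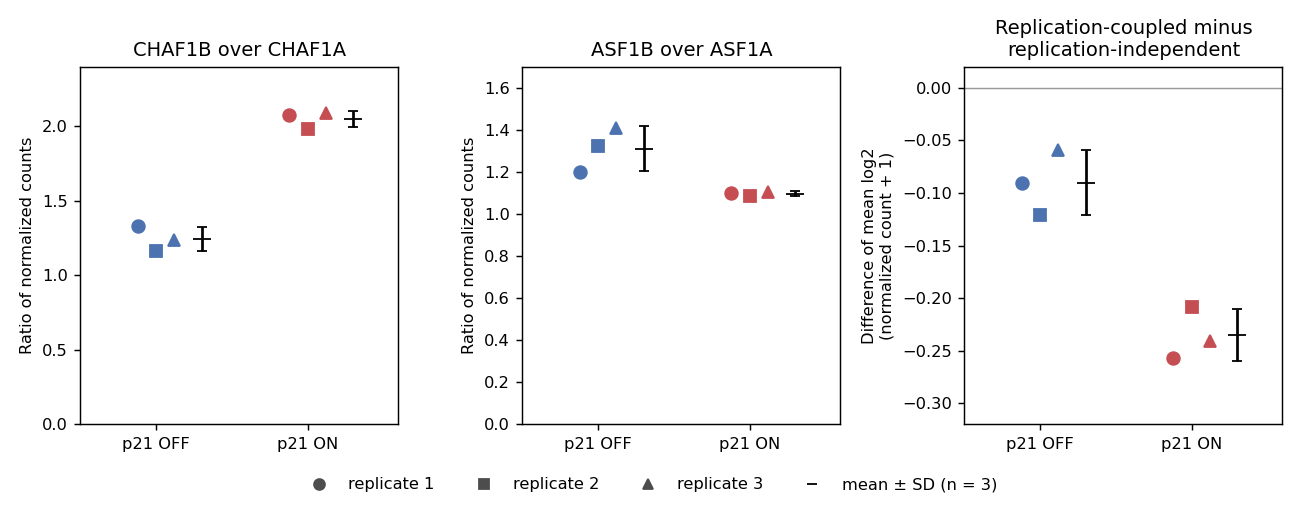
Ratios of normalized counts within each library for CHAF1B over CHAF1A and ASF1B over ASF1A (y axes from 0), and the replication-coupled mean less the replication-independent mean on the log2 scale (right), with mean ± SD in black. The CHAF1B over CHAF1A ratio moved from 1.24 ± 0.08 to 2.05 ± 0.06, and in all panels the p21 OFF and p21 ON points are apart.

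Of the genes of histone supply, HAT1 fell, SLBP rose and NASP was not called. NASP (chr1:46049518-46084576, plus strand), which keeps a reserve of soluble H3-H4, was at 4555, 4245 and 4392 in p21 OFF and at 4271, 4228 and 4068 in p21 ON. The groups overlapped, and the interval of the log2 fold change was -0.19 to 0.05 (adjusted p = 0.401, limma).

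HAT1 (chr2:172778958-172848600, plus strand) acetylates new H4 before it is deposited. It was at 1497, 1240 and 1264 in p21 OFF and at 1026, 1182 and 964 in p21 ON, without overlap. Its mean fell from 1334 ± 142 to 1057 ± 113, 0.793 of its level (log2 fold change -0.34 ± 0.08, SE, adjusted p = 0.00836, limma). Without p21 ON replicate 3 the log2 fold change was -0.27 and no longer passed (adjusted p = 0.0711).

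SLBP (chr4:1694458-1714071, minus strand) binds the stem-loop at the end of replication-dependent histone mRNAs and is needed to process and translate them. It was at 1974, 1619 and 1670 in p21 OFF and at 2020, 2210 and 1996 in p21 ON, with the highest p21 OFF library just below the lowest p21 ON library. The mean rose from 1754 ± 192 to 2076 ± 117, 1.19-fold (log2 fold change 0.25 ± 0.07, SE, adjusted p = 0.0233, limma). The call was lost when any library but p21 OFF replicate 1 was left out (adjusted p from 0.0558 to 0.110), and kept with every other tool and setting at the 0.05 threshold.

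Per kb of canonical transcript NASP was the most abundant of the 10 in both groups, at 1364 normalized counts per kb in p21 OFF and 1299 in p21 ON, followed by SLBP at 969 and 1147 and HAT1 at 816 and 647. In p21 OFF the order went on with ASF1B (671), CABIN1 (533), CHAF1A (495), CHAF1B (463), ASF1A (357), HIRA (347) and UBN1 (292). In p21 ON it went on with CHAF1B (584), CABIN1 (562), ASF1B (491), CHAF1A (378), HIRA (361), UBN1 (338) and ASF1A (311). By mean level CHAF1B therefore moved up past CHAF1A, CABIN1 and ASF1B, and ASF1A moved to the end. In p21 ON, however, the libraries of CHAF1B overlapped those of CABIN1, and those of ASF1A overlapped those of UBN1.

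Of the 9 neighbouring pairs in each order, 4 overlapped between libraries in p21 OFF (SLBP with HAT1, CABIN1 with CHAF1A, CHAF1A with CHAF1B, and ASF1A with HIRA). In p21 ON 5 overlapped: HAT1 with CHAF1B, CHAF1B with CABIN1, CHAF1A with HIRA, HIRA with UBN1, and UBN1 with ASF1A. These pairs are not ordered beyond their spread.

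Some of these genes share exonic bases with others in the annotation, and whether reads were counted by strand is not given in the sources used here. HIRA shares 68.7% of its canonical transcript with C22orf39 on the same strand, so how reads were divided between them is uncertain. C22orf39 was at 346 ± 3.26 in p21 OFF and 317 ± 27.6 in p21 ON, without a call (log2 fold change -0.13, adjusted p = 0.291, limma), against 0.05 for HIRA. CHAF1B shares 89 bases with MORC3, whose log2 fold change was -0.02. ASF1A overlaps MCM9 on the opposite strand by 205 bases, and MCM9 was at 332 ± 24.9 and 366 ± 15.8, without a call (log2 fold change 0.14, adjusted p = 0.255, limma).

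Log2 fold changes also rose with transcript length over all genes (Spearman's rho 0.36 over 12601 genes with a length, which are not independent replicates), and length was not tested as a cause. With that trend removed, CHAF1A was at -0.39, CHAF1B at 0.31, ASF1B at -0.37, HAT1 at -0.25 and SLBP at 0.32, all still called. UBN1, with one of the longer transcripts, dropped to 0.15 (adjusted p = 0.0873, limma).

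Among the 13 partners of these genes 1 rose and 4 fell (38.5%, beside 23.2% of all genes), at a median log2 fold change of -0.03. MCM2, the helicase subunit that also holds parental H3-H4 at the fork, rose from 3190 ± 131 to 3859 ± 125 (log2 fold change 0.28). TONSL, which reads newly deposited H4, fell from 1969 ± 92.7 to 1409 ± 107 (-0.48). CDAN1, a cytosolic binder of ASF1, fell by 0.37 on the log2 scale, with no call without p21 OFF replicate 2, and the H3-H4 importer IPO4 fell by 0.31. DNAJC9, a heat shock co-chaperone of H3-H4, fell by 0.28, with no call without p21 ON replicate 1 or 3. RBBP4, the small CAF-1 subunit, was at 1865 ± 72.7 and 2018 ± 116 and PCNA at 2255 ± 229 and 2496 ± 147, and neither passed the test. PCNA was called higher with the length trend removed (log2 fold change 0.26, adjusted p = 0.00243, limma), and also with the replicate block added. Without p21 OFF replicate 1 it was called higher too (0.22, adjusted p = 0.00606, limma).

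Of 19 other histone chaperones none rose and 7 fell (36.8%, beside 23.2% of all genes), at a median of -0.13, and none was higher in edgeR, DESeq2 or at an unadjusted p under 0.05. ANP32E, which removes H2A.Z, fell most, from 4633 ± 172 to 3193 ± 151 (log2 fold change -0.54). NPM3 fell by 0.36 on the log2 scale and GRWD1, which binds histones and a ribosomal protein, fell by 0.35. SET, ANP32A, ANP32B and VPS72 were the other 4 that fell. Without p21 ON replicate 1 only 3 of the 7, ANP32E, ANP32A and GRWD1, kept their call, and SET also lost its call without p21 ON replicate 3. With the length trend removed NPM3 and VPS72 lost their calls, while NAP1L1 and NCL were called lower. NCL was also called lower in edgeR, DESeq2 and voom, where 8 of the 19 fell, with TMM scaling and without p21 OFF replicate 1. VPS72 also lost its call with scaling by library size. DAXX, which with ATRX places H3.3 at repeats, was at 2275 ± 93.9 and 2231 ± 85.4 without a call, and ATRX was low, at 44.4 ± 5.63 and 48.5 ± 7.13. No call was made for either subunit of FACT, SUPT16H or SSRP1.

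CENP-A is the H3 variant of centromeres. The 4 genes of its deposition machinery all fell (100%, beside 23.2% of all genes), at a median of -1.33. HJURP, the CENP-A chaperone, fell from 1882 ± 39.7 to 668 ± 42.5, a log2 fold change of -1.49 ± 0.07 (SE, adjusted p = 2.53e-11, limma). MIS18A (-1.43) and OIP5 (-1.23) of the licensing complex fell almost as far. HJURP thus fell by 1.49 where ASF1B, the furthest of the 10, fell by 0.45 on the log2 scale.

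Of 18 factors of histone mRNA transcription, processing and decay, which work with SLBP, 3 rose and none fell (16.7%, beside 23.2% of all genes, median -0.02). None fell in edgeR or DESeq2 either, but 5 were lower at an unadjusted p under 0.05, 2 were called lower with the length trend removed, 3 with that and the replicate block, 1 when p21 OFF replicate 1 or 3 was left out and 2 when p21 ON replicate 2 was. CASP8AP2, a component of histone locus bodies, rose from 999 ± 40.6 to 1420 ± 94.7 (log2 fold change 0.51). ZCCHC6, a uridylyltransferase, rose by 0.30 and the translation factor CTIF by 0.25, the latter with no call without p21 ON replicate 3. NPAT, the activator of histone genes, was at 827 ± 9.14 and 870 ± 7.97 and was not called. Over the 56 tested genes of these lists of chaperones, partners, CENP-A and histone mRNA factors and H3F3 genes, 4 rose and 17 fell, 37.5% against 23.2% of all genes. Without p21 ON replicate 1 the number of these genes called lower was 11 in place of 17, and over all genes 692 were called higher and 888 lower, and without p21 ON replicate 3 739 and 1076.

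**Figure D4:**
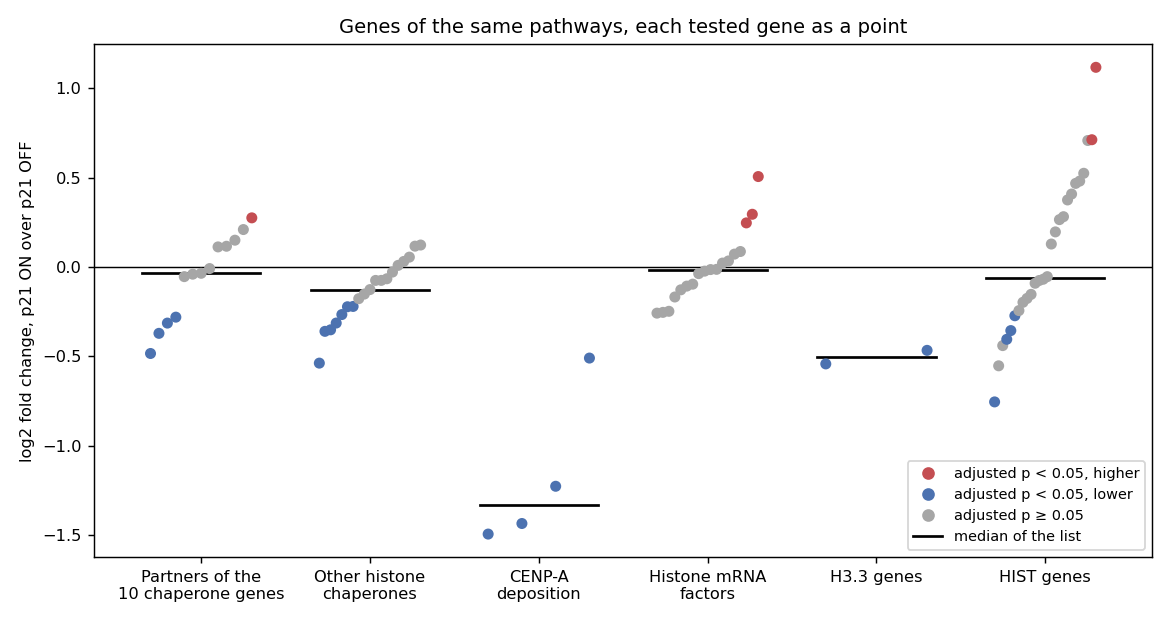
Log2 fold change of p21 ON over p21 OFF (y axis) for each tested gene in 6 lists (x axis), with colour for the call and a bar for the list's median. The list drawn as H3.3 genes is H3F3B and H3F3C, the latter encoding another variant. The 4 CENP-A deposition genes lie at the bottom with a median of -1.33, and the partners and the histone mRNA factors spread around 0.

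The genes whose profiles over the 6 libraries lay nearest to each replication-coupled gene were also listed, by Euclidean distance between centred log2 values. SUN2, BANF1 and GRWD1 were nearest to CHAF1A (distances 0.04 to 0.08), SUN2 and BANF1 being proteins of the nuclear envelope and its link to chromatin. TMPO, RAD21 and TMEM19 were nearest to ASF1B (0.05 to 0.08), TMPO encoding lamina-associated polypeptides and RAD21 a cohesin subunit. SLC48A1, LMCD1 and S1PR2 were nearest to CHAF1B (0.07 to 0.08), at 1.24, 1.22 and 1.30 times their p21 OFF level.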

How the data were processed

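RNA from SaOS-2 cells was poly(A)-selected. Per the labels, the authors aligned reads with STAR to hg19, counted them with HTSeq and deposited DESeq2-normalized counts, a signal with no log transform. Every value was a whole multiple of its library's step within 0.05 of a read, so raw counts were recovered for the count tests. Here limma 3.58.1 (R 4.3.3, trend) was run on log2(normalized count + 1) for the 13255 genes whose mean reached 10, and p-values were adjusted by Benjamini-Hochberg over all of them. Fold changes are on that scale. In simulated data with a log2 fold change of 1, 96.4% of 195 changed genes were recovered and 9 unchanged genes were called. All 10 genes changed by less than that, so this rate does not describe them. edgeR 4.0.16, DESeq2 1.42.0, voom, other scalings, filters and pseudocounts, thinned libraries, a length trend and leaving out each library were the alternatives. Gene positions and lengths came from GENCODE on hg19 and promoters from RefSeq on GRCh38.p14, and 21251 rows matched the annotation. The genes named were all 10, CDKN1A, ATRX, DAXX, in each list up to 3 higher and 3 lower with the largest changes, and the 3 nearest profiles of each replication-coupled gene, and others named, such as RBBP4 and PCNA, were chosen after their values were seen. The genes and lists were chosen with earlier results of these data known, so no test over a list was made.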

Additional observations from a re-analysis of the deposited data

How the results depend on the processing

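CHAF1A, CHAF1B and ASF1B kept their direction and call in all 14 alternatives that used every library and without any one library. At an adjusted p of 0.01, 616 genes were higher and 882 lower, and 1 of the 10 chaperone genes, CHAF1B, was higher. Leaving out one library gave 692 to 1488 genes higher and 888 to 1662 lower, 1 to 2 of the 10 higher, 2 to 3 lower, and 11 to 20 of the pathway genes lower. UBN1 lost its call in 9 of the 14. The replication-coupled less replication-independent difference was -0.15. By medians, which compare only CHAF1A with HIRA, it was -0.44. It was -0.21 with UBN1 added to the replication-independent genes and -0.10 with the length trend removed. With the length trend removed, with or without the replicate block, CABIN1 changed sign to -0.014, ATRX to -0.033 and DAXX to 0.000103, none of them called. DAXX was at 0.0157 with scaling by library size. DESeq2 called 1112 higher and 1406 lower. No pairing by replicate number was visible (correlations of deviations -0.06, -0.02 and -0.05 for equal numbers and -0.005 to 0.054 for unequal ones). Deviations within a group depend on one another and the labels are silent, so whether cultures were paired cannot be decided. The fit with the replicate block called 1407 higher and 1513 lower, with 3 of the 10 higher and 3 lower and a difference of -0.15. Causes of these changes were not tested. With 3 libraries in each group an exact permutation test of one gene cannot go below 0.1, so the calls rest on limma's shared estimate of spread.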

Other observations

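The genes for the histones that these chaperones carry were also in the table. Of the H3F3 genes, H3F3B, which encodes H3.3, fell from 9998 ± 919 to 7224 ± 392 normalized counts (SD, n = 3), a log2 fold change of -0.47. H3F3C, which encodes a variant other than H3.3, fell from 94.8 ± 15.6 to 64.7 ± 9.98 (-0.54). The H3F3C call was lost in DESeq2, with the length trend removed and without p21 OFF replicate 1 or 2 or p21 ON replicate 1 or 3. H3F3A was listed at 0 in all 6 libraries. These genes have near-identical copies, so how reads were divided among them is uncertain.

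Of 72 replication-dependent histone genes 26 reached a mean of 10, and 2 of them rose and 4 fell (23.1%, beside 23.2% of all genes, median log2 fold change -0.06). With the length trend removed the balance turned, to 4 higher and 1 lower, and to 5 and 2 with the replicate block as well. HIST1H4I was at 6.93 ± 1.45 and 16.4 ± 4.79 (log2 fold change 1.12), so it passed the filter only through its p21 ON libraries. With at least 10 required in every library it was not tested, and 1 of these genes rose and 4 fell. HIST1H4H was at 36.4 ± 7.38 and 60.6 ± 15.1 (0.71). HIST1H2BJ fell from 74.8 ± 10.4 to 44.1 ± 8.33 (-0.75), HIST1H1C, whose groups overlapped, by 0.40, HIST1H2AC by 0.36 and HIST1H2BD by 0.27 on the log2 scale. With libraries thinned to the smallest, HIST1H4I and HIST1H4H lost their calls, as both did without p21 OFF replicate 3 and HIST1H4H without p21 ON replicate 2. HIST1H4I had no adjusted p in DESeq2 and fell under the filter without p21 ON replicate 3. HIST1H1C lost its call without p21 ON replicate 1 or 3, and HIST1H2BD when p21 ON replicate 1 or the second p21 OFF library was left out. HIST1H2AC lost its call without any one library but p21 OFF replicate 3, and in DESeq2, voom, scaling by library size and with no filter. With the length trend removed HIST1H1C, HIST1H2AC and HIST1H2BD all lost their calls, HIST1H2AC and HIST1H2BD also with the replicate block. Most mRNAs of these genes end in a stem-loop with no poly(A) tail, and the RNA was poly(A)-selected, so the values cover the polyadenylated part only.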
